A study of Drosophila melanogaster with 5 samples.

Results

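roX1 (CR32777) is a gene of the X chromosome of Drosophila melanogaster whose product is a long non-coding RNA. In the macroarray library studied here it was 1 of 259 genes, printed beside 36 introns and 15 intergenic regions. Its spots were found by the name roX1 on each nylon membrane, leaving out control spots. Membranes A, B and C each carried 3 roX1 clones in duplicate (24_C02, 27_G05 and 27_H03), and membrane D carried 9 clones in duplicate, the same 3 among them. This gave 36 roX1 spots for each developmental interval and 180 in all.

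In flies, dosage compensation raises transcription of the single male X chromosome. The work is done by the MSL complex, which joins several proteins to one of the roX RNAs and spreads over the male X. roX1 and roX2 can stand in for each other in this role. roX1 is known for zygotic transcription that starts at about the blastoderm stage in embryos of both sexes, and for an accumulation that is later restricted to males, whereas roX2 RNA appears later. The protein MSL-2 is made in males only, because Sex-lethal (Sxl), the switch protein of female sex determination, blocks translation of its messenger in females.

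The embryos were wild type Canton S, selected by hand at stages 2 to 3 (S2-3, syncytial blastoderm), stage 5 (S5, cellular blastoderm), stages 6 to 7 (S6-7, gastrula), stages 8 to 9 (S8-9) and stages 10 to 12 (S10-12). Each interval was 1 deposited sample of pooled embryos, about 100 per extraction by the labels, with no separation of the sexes described. SMART cDNA from total RNA was labeled with 32P and hybridized to 4 membranes per interval, 20 in all. Females and males were therefore measured together, and in such whole-embryo RNA fewer expressing cells and less RNA per cell cannot be told apart. The methods of the study name 2 independent events of labeling and hybridization, so membranes of an interval may share a labeling. Which membrane belonged to which event is not given in the sources used here. The 4 membranes of an interval came from 1 sample, so every p-value below measures only the spread between membranes, which may be technical.

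Net intensity was used as deposited, with a local background subtracted, on the arbitrary scale of the imaging software. It is not in every spot the deposited mean signal less the deposited background mean. At S2-3 a spot of 27_G05 on membrane C had signal 0.0732, background mean 0.0813 and net intensity 0.00904. Between 22.7% and 94.4% of the library spots of a membrane (median 64.6%) had a signal that reached the local background mean with 1 of its SDs added, the rule by which a spot was used. Of the spots of solvent alone, 0% to 34.7% passed on a membrane (median 2.43%). RP49, a ribosomal protein gene printed as a control, passed in at least 43 of 46 spots in every interval, and each roX1 value was divided by the median RP49 net intensity of its membrane. Control spots of Sry-alpha, a gene of cellularization, passed in 0, 16, 17, 4 and 0 of 30 spots from the first interval to the last. The positive controls twi, sna, tin and fog had 34 spots each per interval. In the same order, twi passed in 5, 16, 19, 12 and 8 and sna in 0, 13, 6, 3 and 7. Spots of tin passed in 8, 9, 22, 22 and 17 and those of fog in 0, 3, 0, 0 and 0.

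roX1 was low in the syncytial blastoderm, and its mean relative to RP49 was 5.34-fold to 13.3-fold higher in the later intervals, a difference that passed the test at S5, S8-9 and S10-12 but not at S6-7. Of its 36 spots per interval, 20 (55.6%) passed the rule at S2-3 and 34, 33, 31 and 36 passed in the later intervals, in order of age. Over all library spots the share was 42.7% at S2-3 and 71.5% to 79.2% in the later intervals. At S2-3 the median roX1 net intensity was 0.00943 on membrane A, 0.0056 on B, 0.00489 on C and 0.00576 on D. The 95th percentile of the solvent spots on the same membranes was 0.00638, 0.00618, 0.00393 and 0.0013. Thus on membrane B the roX1 spots of the syncytial blastoderm were no brighter than the upper solvent spots, and on membrane C none of the 6 passed the rule. At S10-12 the roX1 medians were 0.075, 0.0272, 0.0718 and 0.0293 on membranes A to D, against solvent percentiles of 0.0133, 0.00856, 0.0103 and 0.00153.

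On the log2 scale of net intensity over RP49, roX1 stood at -3.82 on membrane A, -3.49 on B and -1.93 on D at S2-3, with no value on C. At S5 its values on membranes A to D were -0.54, -0.25, -0.68 and 0.32. All 4 lay above the S2-3 values, so the groups did not overlap. At S6-7 the values were -0.50, -0.23, -2.19 and 0.27, and membrane C fell below the S2-3 value of membrane D. On that membrane the RP49 median was 0.669, against 0.157, 0.0547 and 0.0417 on the other membranes of S6-7, while the roX1 median net intensity of 0.14 lay beside 0.11, 0.0382 and 0.0506. At S8-9 roX1 read 0.11, 0.39, -0.45 and 0.65, and at S10-12 it read 0.65, 1.30, -0.31 and 0.98. Both of the last intervals were clear of S2-3 on every membrane, while membrane C was the lowest of its interval from S5 onwards.

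**Figure D1:**
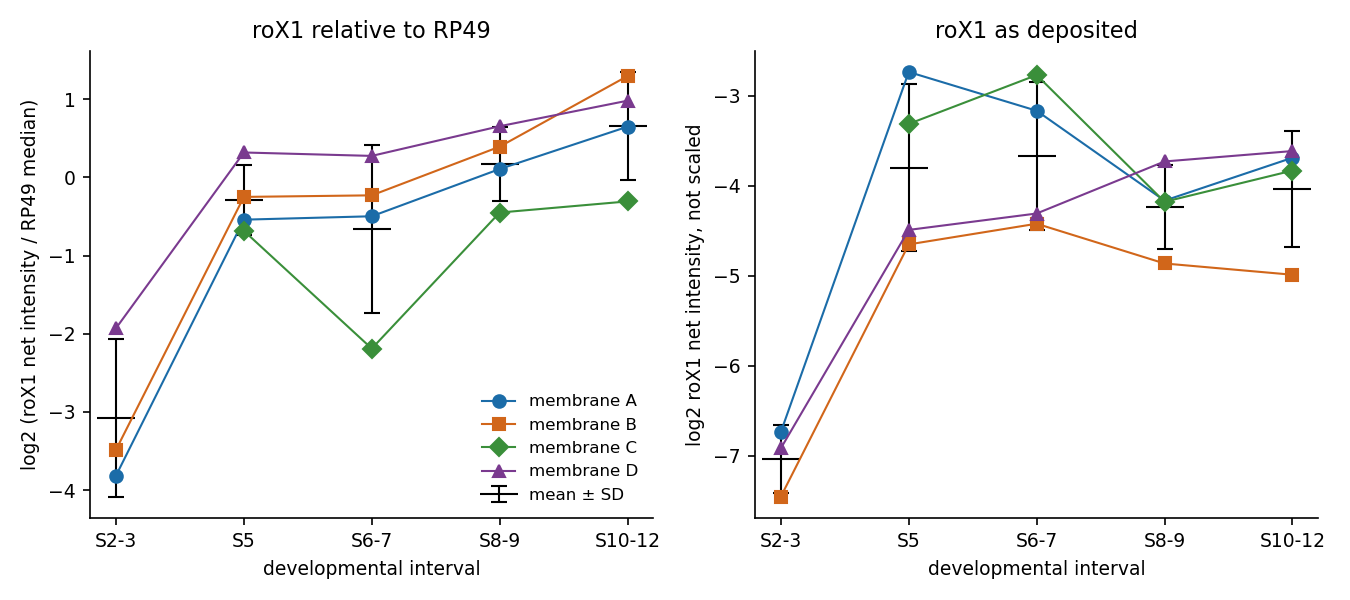
roX1 on each of the 4 membranes (colored symbols) in the 5 intervals, as log2 of net intensity over the RP49 median of the membrane (left) and as log2 net intensity with no scaling (right); black bars give the mean ± SD. Relative to RP49 the mean goes from -3.08 at S2-3 to 0.65 at S10-12, while unscaled it is highest at S6-7, at -3.67.

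The means were -3.08 ± 1.01 (SD, n = 3 membranes) at S2-3, then -0.29 ± 0.44 (S5), -0.66 ± 1.07 (S6-7), 0.18 ± 0.47 (S8-9) and 0.65 ± 0.69 (S10-12), each with n = 4. From lowest to highest the order was S2-3, S6-7, S5, S8-9 and S10-12. S2-3 and its neighbour S6-7 overlapped through membrane C, and no other pair of neighbours in this order differed beyond the spread either, whereas S2-3 lay clear of S5, S8-9 and S10-12. As a ratio, roX1 went from 0.118 of the RP49 signal at S2-3 to 1.57 times that signal at S10-12.

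Against S2-3, roX1 rose at S5 by 2.79 log2 units (SE 0.74), a 6.91-fold difference, with an adjusted p of 0.0204 in the limma fit. This fit covered all genes, introns and intergenic regions measured on at least 2 membranes of both intervals (features), with p-values adjusted over all of them by Benjamini-Hochberg and a threshold of 0.05. At S8-9 the rise was 3.25 log2 units (SE 0.74), or 9.53-fold, with an adjusted p of 0.00483. At S10-12 it was 3.73 log2 units (SE 0.74), or 13.3-fold, with an adjusted p of 0.00155. The difference at S6-7 was 2.42 log2 units (SE 0.74), or 5.34-fold, and did not pass at an adjusted p of 0.0571. With the membrane letter as a block in the limma fit it did pass (2.71 log2 units, adjusted p = 7.2e-06). The share of tested features called higher than S2-3 was 5.03%, 4.14%, 4.52% and 3.25% in the 4 later intervals, in order of age. These 4 comparisons share the S2-3 membranes, so they are not independent of each other.

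The exact two-sided permutation test over membranes gave p = 0.0571 at S5, S8-9 and S10-12 and p = 0.114 at S6-7. With 3 membranes against 4 the smallest p it can give is 0.0571. Without membrane A the limma adjusted p at S5, S8-9 and S10-12 became 0.648, 0.596 and 0.300, and without membrane B it became 0.496, 0.393 and 0.393, S2-3 then resting on 2 membranes. The differences themselves were 2.50, 2.91 and 3.36 log2 units without A and 2.57, 2.98 and 3.31 without B. Without membrane D, S2-3 also rested on 2 membranes, A and B. The differences were then 3.16, 3.67 and 4.20 log2 units, with limma adjusted p of 0.000243, 1.45e-05 and 8.7e-07. At S6-7 roX1 passed when membrane C was left out (2.93 log2 units, limma adjusted p = 0.00513) or membrane D (2.68, adjusted p = 0.00373). Membrane C gave no S2-3 value. Set against its own brightest spot there, a net intensity of 0.00904 that was under the rule, roX1 on membrane C was at least 5.64, 1.98, 6.63 and 7.32-fold higher in the later intervals, in order of age.

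Membrane D had a layout of its own, so the differences were also read within each membrane letter. From S2-3 to S5 roX1 went up by 3.27 log2 units on membrane A, 3.23 on B and 2.25 on D. From S2-3 to S10-12 it went up by 4.46 on A, 4.78 on B and 2.91 on D. Without the clone 27_H03 the differences on D were 2.37 at S5 and 1.80 at S10-12. The direction was the same in each of the 3 letters measured at S2-3, with the smallest difference on D.

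Among the later intervals no difference of roX1 passed the test with interval alone in the fit. From S5 to S10-12 it was 0.94 log2 units (SE 0.68, limma adjusted p = 0.949), and within letters it was 1.19 on A, 1.55 on B, 0.38 on C and 0.66 on D. From S6-7 to S10-12 it was 1.32 (SE 0.68, limma adjusted p = 0.942), and within letters 1.15, 1.53, 1.88 and 0.71. The last pair passed with the membrane letter as a block (1.32, limma adjusted p = 0.0335). Every letter was higher at S10-12 than at S5 or S6-7, but the membranes of the intervals overlapped. On membrane D this direction rested on the clone 27_H03, without which the D differences turned to -0.57 from S5 and -0.44 from S6-7. The exact permutation p was 0.0857 for both pairs, where 4 membranes against 4 can reach 0.0286. Between S5 and S6-7 the difference was -0.37 (SE 0.68, limma adjusted p = 0.982), with 0.04, 0.02 and -0.04 on membranes A, B and D and -1.51 on membrane C. As a mean over clones, roX1 was thus nearly level across gastrulation on every membrane but C, the one with the high RP49 signal. On membrane B the S5 value rested on 1 clone, 27_G05, which itself changed by -0.26. Single clones on membrane D ran from -0.55 to 0.89. In S6-7 against S5, 1.35% of the features were called lower and 0% higher. In S8-9 against S5, 0.485% were called lower, in S10-12 against S5, 0.962% were called lower and 0% higher, and in S10-12 against S6-7 0% were called in either direction (9 features at an unadjusted p under 0.05, and 5 by SAM, Significance Analysis of Microarrays).

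The single clones of roX1 shared the rise from S2-3 but not the course among the later intervals. On membrane A the clone 24_C02 had 0.0645 of the RP49 signal at S2-3 and 0.825 at S5, the clone 27_G05 had 0.0815 and 0.577, and the clone 27_H03 had 0.067 and 0.66. Their log2 values, as means of both duplicates, were correlated across the membranes on which all 3 shared clones were measured. Over the 12 such membranes among A to C, r was 0.964 to 0.989. With the 4 such membranes D included, 16 in all, r was 0.85 to 0.944. This is a description over membranes that share their samples. Counting each clone on each membrane where it was measured in both intervals, 10 of 10 were higher at S5 than at S2-3, and 11 of 11, 12 of 12 and 12 of 12 were higher in the intervals after it. Their differences to S10-12 ran from 0.66 to 5.10 log2 units with a median of 4.37. These clones share a gene and a membrane and are not replicates of an interval.

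On membrane D the clones spread apart. At S2-3, 6 of the 9 had a value, from 0.146 to 0.436 of RP49, and at S5 8 had one, from 0.274 to 2.57. The clone 26_B11 was under the rule until S10-12, where it reached 0.152. At S10-12 the clone 27_H03 had duplicate net intensities of 0.467 and 0.42, which is 10.7 times the RP49 signal, while the other 8 clones lay between 0.152 and 1.72. On membranes A, B and C the same clone 27_H03 had 1.25, 2.68 and 0.66 at that interval, beside 1.49, 2.01 and 0.769 for 24_C02. The high reading was therefore found on 1 membrane, and without that clone the S10-12 value of membrane D went from 0.98 to -0.18. Without 27_H03 on membrane D the rise from S2-3 to S10-12 was 3.46 log2 units, with a limma adjusted p of 0.00445. Of the 8 clones measured on membrane D at both S8-9 and S10-12, 5 were lower at S10-12. Their differences were -1.04 (10_C12), -1.17 (25_A06), -1.47 (25_A07), -1.43 (27_G05) and -0.13 (10_E10). The 3 that were higher were 24_A12 by 1.20, 24_C02 by 0.26 and 27_H03 by 2.03. Of the 8 clones measured on membrane D, 6 were lower at S10-12 than at S5, and 5 were lower than at S6-7.

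**Figure D2:**
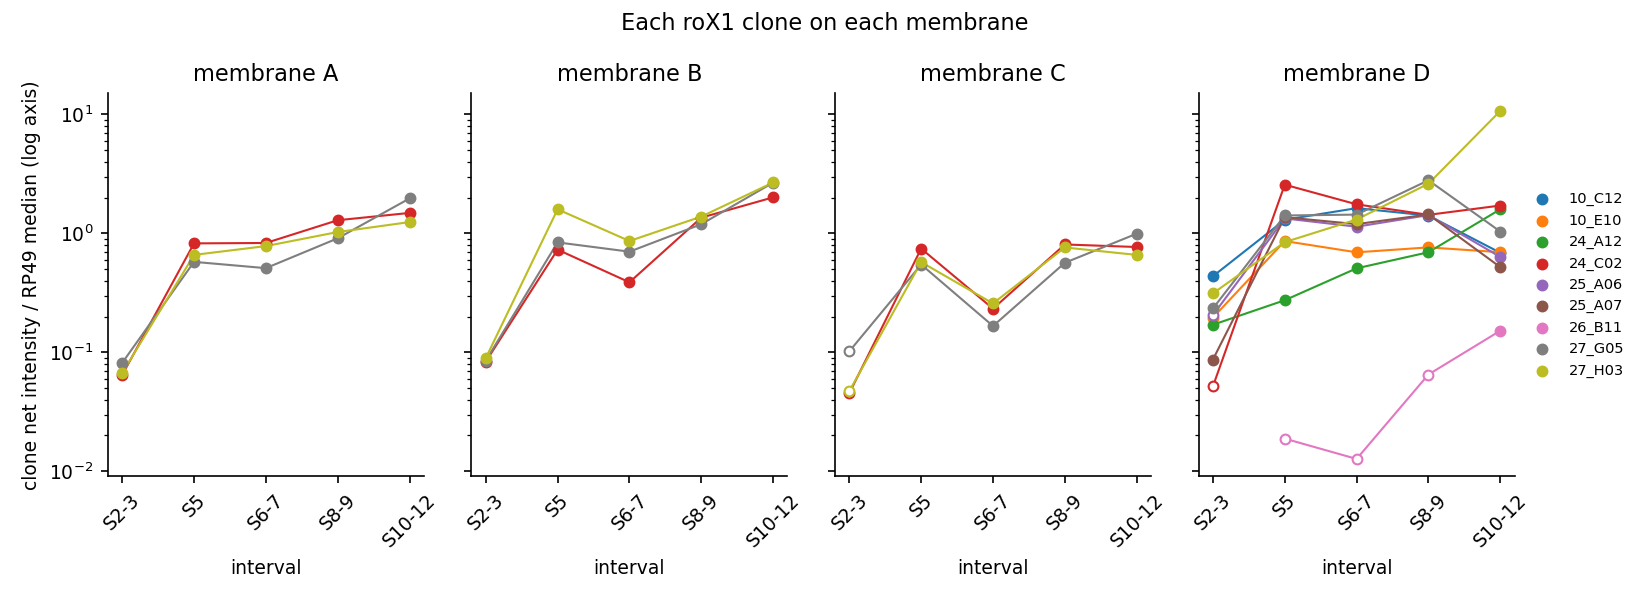
Net intensity of each roX1 clone (mean of both duplicates) over the RP49 median of its membrane (log axis) in the 5 intervals. Each panel is 1 membrane. Filled points had at least 1 spot over the signal rule and open points had none. A clone with a net intensity of 0 (26_B11 at S2-3) is not drawn. The 3 clones of membranes A to C run together, while on membrane D 27_H03 reaches 10.7 at S10-12 and 26_B11 stays below 0.16.

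The rise of roX1 was read against all other features, since the median feature was also above its S2-3 level on this scale. That median was 0.83, 0.56, 0.95 and 1.09 log2 units in the 4 later intervals, in order of age. Relative to it, roX1 stood 1.95, 1.86, 2.31 and 2.64 log2 units higher. Its difference from S2-3 was number 7 from the top of 159 tested features in the cellular blastoderm and number 11 of 169 in the gastrula. It was number 5 of 155 and number 3 of 154 in the 2 oldest intervals. Of the 310 features printed, those measured on fewer than 2 membranes at S2-3 were not ranked, also where they were bright later. CG14939, for example, had no value at S2-3 and a mean log2 value over RP49 of 1.79 at S5. The places of roX1 thus hold among the tested features only. At S10-12 only Ama (5.44 log2 units, SE 0.90, limma adjusted p = 0.000324), which encodes the secreted adhesion protein Amalgam, and Ocho (4.19, SE 1.11, adjusted p = 0.0247), a gene of the Bearded family of Notch pathway regulators, lay above it. At S8-9 Ama (6.06), Tom (5.04), another gene of the Bearded family, skpA (4.26), which encodes a subunit of SCF ubiquitin ligases, and sala (3.94) lay above roX1, all with an adjusted p under the threshold. At S5 the 5 largest differences were those of Ama (4.67), Nrt (4.60), which encodes the Amalgam receptor Neurotactin, CG6479 (4.41), CG12730 (3.98) and skpA (3.33).

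**Figure D3:**
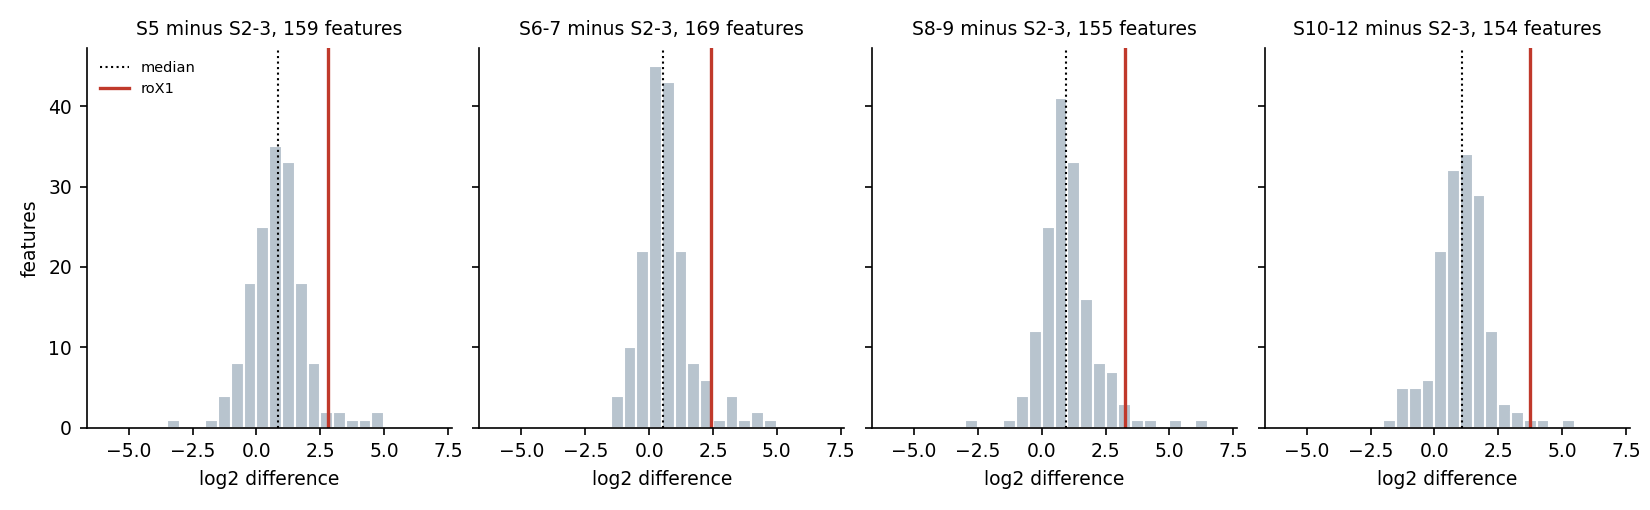
Histograms of the log2 difference from S2-3 (x axis) over all tested features (y axis, number of features in bins of equal width) for the 4 later intervals; the dotted line is the median of the features and the red line is roX1. roX1 lies in the upper tail, 1.95, 1.86, 2.31 and 2.64 log2 units above the median.

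The size of the rise depended on the reference. The 8 scalings compared were the median, the mean and the median of all RP49 spots, RP49 with dap (a bacterial spike-in), dap alone, RP49 with actin and tubulin, the 75th percentile of the library spots, and quantiles. The RP49 median on membrane A was 0.132, 0.219, 0.157, 0.0518 and 0.0495 from S2-3 to S10-12, and on membrane B it was 0.0639, 0.0473, 0.0547, 0.0262 and 0.0128. The reference was thus lower at S8-9 and S10-12 than before on both of these membranes. On membrane C it was 0.0819, 0.162, 0.669, 0.0755 and 0.087, and on membrane D 0.0315, 0.0357, 0.0417, 0.0479 and 0.0414, so these 2 membranes did not share that order. With no scaling, the net intensity of roX1 on membrane A was 0.00938, 0.15, 0.111, 0.0557 and 0.0776 from the first interval to the last, so its peak was in the cellular blastoderm. Unscaled on membrane D it went from 0.00828 at S2-3 to 0.0445, 0.0505, 0.0754 and 0.0817. S2-3 was the lowest mean and S10-12 the highest under each of the 8 scalings, but unscaled the highest mean was that of S6-7. With dap alone roX1 had values on 2 membranes at S2-3 and on 3 in each later interval. With RP49, actin and tubulin it had values on 3 membranes at S10-12.

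With the 75th percentile of the library spots as the reference, roX1 was 1.66, 1.57, 2.07 and 2.71 log2 units above S2-3 in the later intervals, and all 4 passed the test. On that scale the median feature was below its S2-3 level, at -0.39, -0.44, -0.34 and -0.12. Over the 8 scalings, roX1 stood 1.95 to 2.49 log2 units above the median feature in the cellular blastoderm and 1.83 to 2.36 above it in the gastrula. In the 2 oldest intervals the ranges were 2.25 to 2.91 and 2.59 to 3.54. Each upper end came from dap alone, with 2 membranes at S2-3. The place of roX1 from the top ran from 6 to 8, 7 to 11, 2 to 6 and 1 to 4 in order of age.

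**Figure D4:**
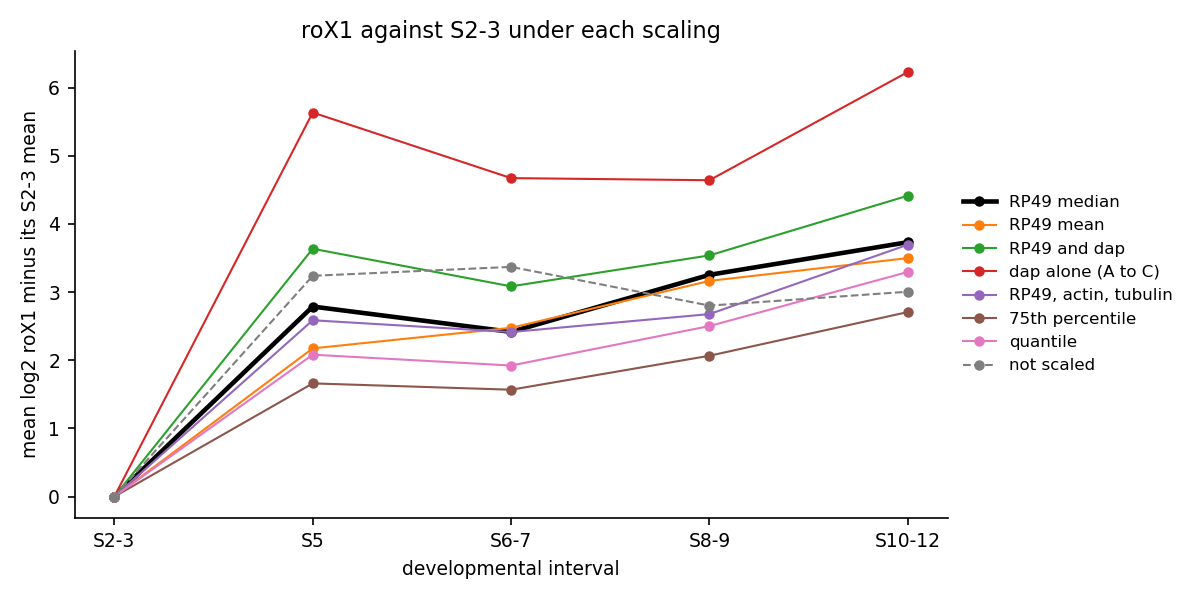
Mean log2 roX1 less its own S2-3 mean (y axis) in the 5 intervals under the RP49 median (thick black line), 6 other scalings and no scaling (dashed line). Every line leaves S2-3 upwards, from 1.66 for the 75th percentile to 5.63 for dap alone at S5. All but the dashed line are highest at S10-12. The line of dap alone rests on 2 membranes at S2-3.

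In the RefSeq annotation roX1 overlaps the protein-coding gene echinus (ec, CG2904), known for its role in the cell sorting and cell death of the developing eye, and the next gene after it is yin. ec was also in the library, as 1 clone on membrane D. Its log2 values over RP49 were -3.16, -0.24, -0.57, -0.53 and -0.79 from the first interval to the last, on 1 membrane and so with no test. Both were lowest at S2-3 on membrane D, and ec was highest at S5. roX1 was highest there at S10-12 (0.98) with the clone 27_H03 and at S8-9 (0.51) without it. The double-stranded 32P probe carries no strand, and the positions of the clones in the genes were not used here, so signal of ec and roX1 in the shared stretch cannot be told apart.

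Of 12 genes of dosage compensation and its control that were listed, 3 were in the library, roX1, msl-2 and Sxl. Besides roX1, 0 members passed the limma test in any comparison (1 of 13 tests at an unadjusted p under 0.05). Over all features, 1.74% of the limma tests passed and 6.95% had such an unadjusted p. SAM called Sxl higher than S2-3 at S5 and at S8-9, where it called 11.9% and 46.5% of all features higher. msl-2, the messenger of the male-specific subunit, was at -1.0 on membrane C and -1.32 on D at S2-3. At S5 it was at -1.95 on A, -3.29 on C and 0.38 on D, and from S8-9 only membrane D measured it, at -0.08 and then -0.47. Its difference from S2-3 to S5 was -0.46 (SE 1.20, limma adjusted p = 0.859). Sxl was at -3.53 on membrane A and -2.28 on D at S2-3, and at -0.96, -1.36 and -0.44 on A, C and D at S5. Its difference was 1.98 log2 units (SE 0.93, limma adjusted p = 0.329), beside 0.83 for the median of all features. At S10-12 Sxl stood at -2.07, -1.23, -3.66 and -1.18 on membranes A to D, where roX1 was at its highest.

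**Figure D5:**
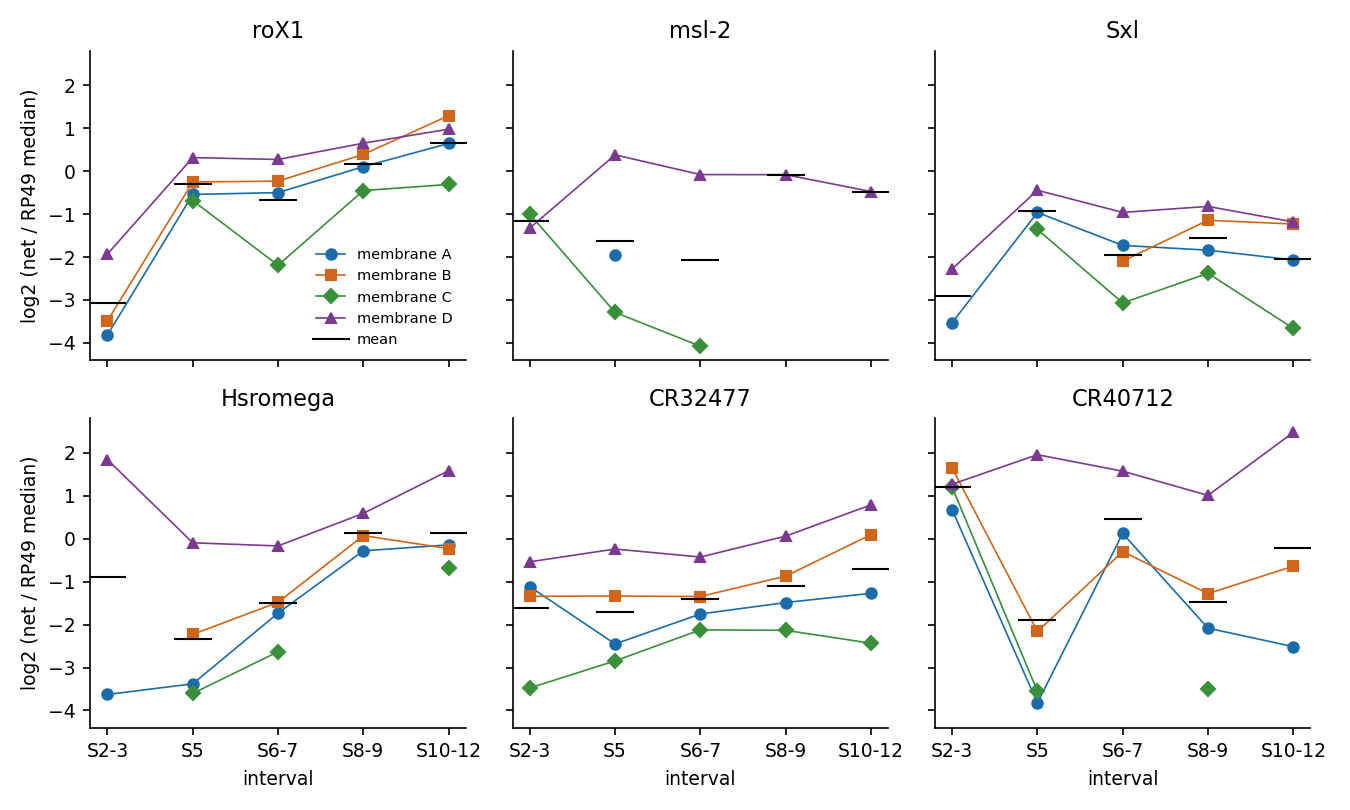
log2 of net intensity over the RP49 median (y axis) of roX1, of msl-2 and Sxl, and of 3 other non-coding RNA genes in the 5 intervals; symbols are membranes A to D and black bars are means. roX1 goes from -3.08 to 0.65, while Sxl goes from -2.90 at S2-3 to -0.92 at S5 and -2.04 at S10-12.

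By name or CR number, 4 genes of the library were listed as non-coding RNAs: roX1, Hsromega, CR32477 and CR40712. CG34335, which RefSeq names lncRNA:CR34335, was not in this list. The 3 listed genes other than roX1 passed 0 limma tests (4 of 30 at an unadjusted p under 0.05, and 0 by SAM). Over all features 1.74% of the limma tests and 9.22% of the SAM tests were called. Their median difference from S2-3 was -1.43, -0.61, 0.51 and 0.91 in the later intervals, in order of age, beside 0.83, 0.56, 0.95 and 1.09 for all features. Hsromega, a heat shock RNA of nuclear speckles, was measured on A (-3.63) and D (1.84) at S2-3 and lay at -0.14, -0.23, -0.67 and 1.59 at S10-12. Its S5 values were -3.38, -2.23, -3.60 and -0.09. CR40712 had values of 0.68, 1.65, 1.20 and 1.27 at S2-3 and -3.83, -2.16, -3.55 and 1.96 at S5. The difference was -3.10 log2 units (SE 1.07, limma adjusted p = 0.111), down on 3 membranes and up on D. CR32477 had means of -1.62 at S2-3 and -0.70 at S10-12, a difference of 0.91 (SE 0.80, limma adjusted p = 0.490).

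The features with the interval means most like those of roX1 were CG4500 (r = 0.991), smt3 (r = 0.988), CG15095 (r = 0.988), CG31800 (r = 0.981) and CG6327 (r = 0.976). This is over 5 interval means and 138 features, with a median r of 0.751 and 31 features over 0.9, and every value shares the same membranes and the same RP49 reference. smt3 encodes the small modifier SUMO, and CG15095 is named MFS14 in RefSeq. Their differences from S2-3 to S10-12 were 1.76, 1.40, 1.44, 1.70 and 1.72 log2 units, against 3.73 for roX1. With the 75th percentile as the reference the median r was -0.19, and 2 of the 5, CG31800 (r = 0.932) and CG4500 (r = 0.917), remained among the 5 most alike. The likeness of smt3 dropped to r = 0.259.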

How the data were processed

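The values analysed were spot intensities of 20 nylon membranes, as deposited. The authors hybridized 32P-labeled SMART cDNA, scanned phosphor screens, measured spots in VersArray Analyzer and deposited raw and net intensity with the local background subtracted and no normalization between membranes. Embryos per extraction and the dilution of the dap spike differ between the labels and the methods of the study. A table of normalized values was not used here, since its rows carry no names.

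Spots entered when the signal reached the local background mean with 1 SD of it added. Clones whose duplicates had a coefficient of variation over 0.5 were dropped. The quality score that the methods also name was not applied, as its inputs were not used here. Net intensity was divided by the median RP49 net intensity of the membrane, the clones of each gene were then averaged, and log2 was taken of these ratios of the deposited intensities. Features measured on at least 2 membranes in both intervals were compared in limma 3.58.1 (R 4.3.3; lmFit, eBayes), with all 20 membranes in 1 fit and a mean per interval. p-values of all features of a comparison were adjusted together by Benjamini-Hochberg, with 0.05 as the threshold. All 10 pairs of intervals were compared. SAM (Significance Analysis of Microarrays), with a false discovery rate of 5%, was written after its published description. The limma fit was tested on simulated data with independent noise between membranes and changes at S5 only. Those data held no effect of the membrane letter, so they do not bear on membranes that deviate together. Other steps used SciPy 1.17.1, NumPy 2.4.6 and pandas 2.3.3 under Python 3.11.15.

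Genes named are roX1, the 5 features with the highest Pearson r to its interval means, and up to 5 with larger differences where roX1 was called. Members of the dosage compensation and non-coding lists, the scaling controls and the positive controls are named too. ec and CG34335 were named after their annotation was seen. The members, lists and tests were chosen with earlier results of these data known. Of 259 genes, 253 were matched to RefSeq Release 6 by locus tag or synonym, for names, chromosome and neighbours only.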

Additional observations from a re-analysis of the deposited data

Results flagged for a closer look

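One control reading stood apart from its group. On membrane D at S5 the log2 median net intensity of actin was -3.43, against -2.01, -2.0 and -1.85 on the other membranes of S5. The gap was 0.895 of the range, over the limit of 0.829 for 4 values. This was 1 of 32 groups of 4 membranes examined, and chance puts about 1 in 20 past the limit. Actin entered only the scaling by RP49, actin and tubulin, where the rise of roX1 from S2-3 to S5 was 2.59 log2 units. No roX1 value stood apart in this way.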

How the results depend on the processing

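The rise of roX1 from S2-3 kept its direction under all 25 alternatives in each later interval. Some of these keep the main difference by construction: SAM, the permutation test, a minimum of 3 membranes and a fit of only the 2 intervals. In order of age the rise ran from 1.66 to 5.63, 1.50 to 4.67, 2.07 to 4.64 and 2.65 to 6.23 log2 units. Each upper end was that of dap alone. At S5 it no longer passed with the mean of the RP49 spots (2.17), normexp (1.87), a signal rule of 2 SD (2.51) or membranes A to C as 1 value (2.70). At S8-9 the same held for dap alone (4.64), 2 SD (2.78) and A to C as 1 value (3.13), and at S10-12 for A to C as 1 value (3.55). The exact permutation test, on the same differences of 2.79, 3.25 and 3.73, is too small to pass. At S6-7 it passed with RP49 and dap (3.08), the 75th percentile (1.57), quantiles (1.92), no signal rule (2.55), the median of clones (2.55) and SAM (2.42). Leaving out each membrane letter gave 2.50 to 3.16, 1.99 to 2.93, 2.91 to 3.67 and 3.31 to 4.20 in order of age, and calls were lost without A and without B, while S6-7 passed without C and without D. Why these calls moved was not tested. S2-3 rested on 2 membranes without A, without B and without D alike.

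Between later intervals, S6-7 minus S5 turned to 0.30 with the RP49 mean and ran from -0.51 to 0.0066 with a letter left out, turning without C. S8-9 minus S5 turned to -0.10 with RP49 and dap and to -0.99 with dap alone, and S8-9 minus S6-7 to -0.031 with dap alone. With quantiles S10-12 passed against S5 (1.21) and S6-7 (1.37).

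In the fit with the letter as a replicate block, roX1 passed at S6-7 (2.71) and for S10-12 against S6-7 (1.32), and no other call on roX1 changed. The letter is a layout and not a pairing of embryos: same-letter membranes of different intervals deviated together (correlation over 0.1) in 35 of 40 pairs, from -0.06 to 0.73. The features called higher than S2-3 in at least 1 later interval were 14 without the block and 100 with it, and those called lower 0 and 6. The higher count was 24 with RP49 and dap, 9 with the RP49 mean, 30 with no signal rule, 1 with 2 SD and 2 to 25 with a letter left out. The lower count was 34 with the 75th percentile, 7 with quantiles and 0 to 4 with a letter left out.

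Alternatives chosen after seeing the data were the 3 shared clones alone, all RP49 spots and membrane D without 27_H03, which changed no call on roX1, and clones measured in both intervals, which has no test and kept every direction. The table of normalized values could not be run, as its rows have no names. Near the solvent signal, as for roX1 at S2-3, the depth of the syncytial level is not resolved.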

Other observations

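The library held 29 genes annotated on the X chromosome, roX1 included, on which the roX1 RNA acts in males. Of the 15 others tested from S2-3 to S5, 2 were called higher, where 5.03% of all 159 features were. They were CG12730 (3.98 log2 units, SE 1.03, limma adjusted p = 0.0204) and skpA (3.33, SE 0.91, adjusted p = 0.0239). skpA was also called at S6-7 (4.02), as 1 of 16 others tested, and at S8-9 (4.26), as 1 of 14. Of all features, 4.14% and 4.52% were called higher there. At S10-12, 0 of 13 others were called, beside 3.25% of all features. CG12730 was called lower at S6-7 than at S5 (-3.49, SE 0.86, limma adjusted p = 0.036), as 1 of 20 others tested, beside 1.35% of all features. skpA and CG12730 were each measured on 2 membranes at S2-3. The median difference of the X-linked genes other than roX1 was 1.09, 0.58, 0.82 and 1.25 in the later intervals, in order of age, beside 0.83, 0.56, 0.95 and 1.09 for all features.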
